A study of Mus musculus with 13 samples.

Results

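The genes described here encode the light chains of adult sarcomeric myosin and the kinases related to their phosphorylation in skeletal muscle. They are the fast and slow regulatory light chains Mylpf and Myl2, the fast and slow essential light chains Myl1 and Myl3, the essential light chain Myl6b, and the myosin light chain kinases Mylk2 and Mylk4. They were chosen by gene symbol, with symbols assigned to the Ensembl identifiers of the count tables through GENCODE mouse release 21, and make up 7 of the 17924 genes in these tables. RNA was extracted from whole muscles of mdm mice and sequenced in 13 libraries, namely 5 of the extensor digitorum longus (EDL, a fast muscle of the lower leg), 5 of the psoas (a hip flexor rich in fast fibres) and 3 of the soleus (a postural muscle rich in slow fibres). Every library carries the genotype label mdm, a mutation of the titin gene that removes part of the N2A-PEVK region of the protein in frame, and the mice came from a colony founded with B6C3Fe a/a-Ttn mdm/J animals. The mice were 38 to 42 days old for EDL, 29 to 42 days for psoas and 33 to 38 days for soleus. No treatment is named. Sex is labelled for 6 libraries: EDL and psoas replicates 2 and soleus replicates 1 and 2 came from males, and EDL and psoas replicates 3 from females. The labels also carry a code from T1 to T6 whose meaning they do not give, and codes T4, T5 and T6 hold more than 1 muscle. Wild-type libraries were not analysed here, so all comparisons are between mdm muscles.

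Each myosin head carries a pair of light chains on the lever arm of its heavy chain. The essential light chain stiffens the lever arm, and the regulatory light chain is phosphorylated by calcium- and calmodulin-dependent myosin light chain kinase, which raises the force of fast fibres at submaximal calcium. Fast fibres mainly use Mylpf and Myl1, whereas slow fibres mainly use Myl2 and Myl3, which also serve the ventricle of the heart. Mylk2 encodes the skeletal muscle kinase that phosphorylates the fast regulatory light chain, Mylk4 a related kinase of the same family, and Myl6b an essential light chain known from slow skeletal muscle and from cells other than muscle.

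The 7 genes lie on different chromosomes of GRCm38. Mylpf (ENSMUSG00000030672) spans chr7:127208890-127214298 on the forward strand and Myl2 (ENSMUSG00000013936) chr5:122100951-122113472 on the forward strand. Myl1 (ENSMUSG00000061816) spans chr1:66924295-66945404 on the reverse strand, Myl3 (ENSMUSG00000059741) chr9:110741861-110769798 on the forward strand and Myl6b (ENSMUSG00000039824) chr10:128494157-128498685 on the reverse strand. Mylk2 (ENSMUSG00000027470) spans chr2:152911352-152923068 on the forward strand and Mylk4 (ENSMUSG00000044951) chr13:32700834-32783954 on the reverse strand. All 7 are protein coding, with 1 annotated transcript for Mylk2 and 12 for Myl2. Exons of Myl2 share 60 bases with exons of Ccdc63 on the opposite strand and exons of Myl3 share 95 bases with those of Pth1r. The strand setting of the counting is not given in the sources used here, so reads from these bases cannot be assigned to a strand with certainty.

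The promoters of Mylpf and Myl1 are shown because these genes had their highest levels in EDL, that of Myl3 because it was highest in soleus, and that of Myl6b because its RNA was lowest in EDL. The windows run from 250 bases before to 50 bases after the transcription start in RefSeq on GRCm38.p6, a patch of the same build, and are written 5′ to 3′ on the strand of the gene. Capitals mark matches to the motifs searched on both strands, the E-box CANNTG, the MCAT motif CATTCC, the TATA motif TATAAA, the MEF2 site and the CArG box.
Mylpf, chr7:127211358-127211657, forward strand: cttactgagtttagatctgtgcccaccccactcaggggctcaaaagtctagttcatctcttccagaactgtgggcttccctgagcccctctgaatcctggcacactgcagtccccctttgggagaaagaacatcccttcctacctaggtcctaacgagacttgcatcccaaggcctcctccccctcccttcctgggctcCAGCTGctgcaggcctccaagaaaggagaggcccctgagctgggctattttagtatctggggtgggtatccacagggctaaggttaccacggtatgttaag
Myl1, chr1:66945007-66945306, reverse strand: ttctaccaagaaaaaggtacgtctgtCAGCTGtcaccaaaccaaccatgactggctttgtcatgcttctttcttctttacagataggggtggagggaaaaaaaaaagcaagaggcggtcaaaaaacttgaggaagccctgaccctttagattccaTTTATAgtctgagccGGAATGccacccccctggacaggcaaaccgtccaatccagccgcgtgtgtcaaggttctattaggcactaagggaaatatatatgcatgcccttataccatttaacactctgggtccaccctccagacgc
Myl3, chr9:110763428-110763727, forward strand: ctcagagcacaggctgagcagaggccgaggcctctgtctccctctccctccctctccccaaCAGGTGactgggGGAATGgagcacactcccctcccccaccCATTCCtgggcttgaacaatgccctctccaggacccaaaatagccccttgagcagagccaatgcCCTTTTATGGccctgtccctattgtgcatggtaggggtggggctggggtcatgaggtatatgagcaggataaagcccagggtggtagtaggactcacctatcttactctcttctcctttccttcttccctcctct
Myl6b, chr10:128498636-128498935, reverse strand: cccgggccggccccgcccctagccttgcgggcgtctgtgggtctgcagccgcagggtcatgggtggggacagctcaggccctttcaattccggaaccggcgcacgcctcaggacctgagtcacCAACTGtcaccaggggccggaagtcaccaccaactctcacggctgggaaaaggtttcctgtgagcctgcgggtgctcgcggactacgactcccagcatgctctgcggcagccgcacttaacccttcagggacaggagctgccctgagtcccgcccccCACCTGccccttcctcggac

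The Mylpf window held 1 E-box match, 51 to 46 bases before the start site. In Myl1 there were 1 E-box match, 1 TATA match 95 to 90 bases before the start and 1 MCAT match 80 to 75 bases before it, none of which overlapped. The Myl3 window held 1 E-box match, 2 MCAT matches and 1 CArG match at 85 to 76 bases before the start. Myl6b had 2 E-box matches, 1 of them after the start site. The window of Mylk4 held 4 E-box matches and 1 MEF2 match, 103 to 94 bases before the start. Of all 32851 RefSeq promoters of this length, 72.3% held an E-box match, 14.7% an MCAT match, 13.6% a TATA match, 3.19% a MEF2 match and 1.63% a CArG match. These are matches of letters, and no binding was measured. RefSeq entries matched 6 of the 7 genes, all but Mylk2, and the entries of Myl2 start 8227 and 7762 bases from the nearest GENCODE start of that gene, so they are not shown.

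Counts summed to 12059090 to 48835209 per EDL library, 16315975 to 30009501 per psoas library and 9114176 to 39484945 per soleus library. The RNA integrity number reported by the study was in no psoas library above that of any EDL library. The part of RNA quality in the differences between these muscles was not tested. The 7 genes together took 1.52% to 2.36% of all counts in EDL, 0.684% to 1.41% in psoas and 1.06% to 1.47% in soleus. All 6 skeletal muscle markers examined, among them Acta1 and Ckm, were detected in every muscle. Their levels differed between muscles and are given below with the other markers. Levels are given as the authors' normalized counts, which are read counts divided by a size factor for each library. Levels of different genes are compared only after division by the length of their exons in kb, over all annotated transcripts. In these whole-muscle samples, fewer fibres of a type and less RNA per fibre cannot be told apart.

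Per kb of exon, Mylpf had the highest level of the 7 genes in every muscle, with 247183 ± 46057 normalized counts per kb in EDL (SD, n = 5), 81682 ± 34152 in psoas (n = 5) and 60490 ± 13597 in soleus (n = 3). Myl1 came next with 61653 ± 15431, 27667 ± 6273 and 31773 ± 3535 normalized counts per kb. In EDL these were followed at a distance by Myl2 (1566 per kb), Mylk2 (1141), Myl3 (239) and Mylk4 (133), whose neighbouring ranges overlapped, and by Myl6b at 26.9 ± 9.72, below all of them. In psoas the libraries of Myl2 (564 per kb), Mylk2 (262), Myl3 (240) and Myl6b (178) overlapped in this order, and Mylk4 was lowest at 21.9 ± 7.05. In soleus Myl2 reached 29964 ± 7082 per kb, overlapping with Myl1, and Myl3 followed at 7165 ± 2075, above every library of Mylk2 (302 per kb) and Myl6b (223), which overlapped. Mylk4 was the lowest of the 7 in soleus, at 9.11 ± 5.86 per kb. Thus Myl2 per kb reached the range of a fast light chain, Myl1, only in soleus, where Myl3 lay below every library of both fast chains. The order of Mylpf, Myl1 and Myl2 in soleus depends on exon length. Not divided by length, their mean normalized counts there were 64240, 65896 and 58429, with overlapping libraries. The position of Myl6b and Mylk4 at the bottom of the order was exchanged between EDL and the other muscles.

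**Figure D1:**
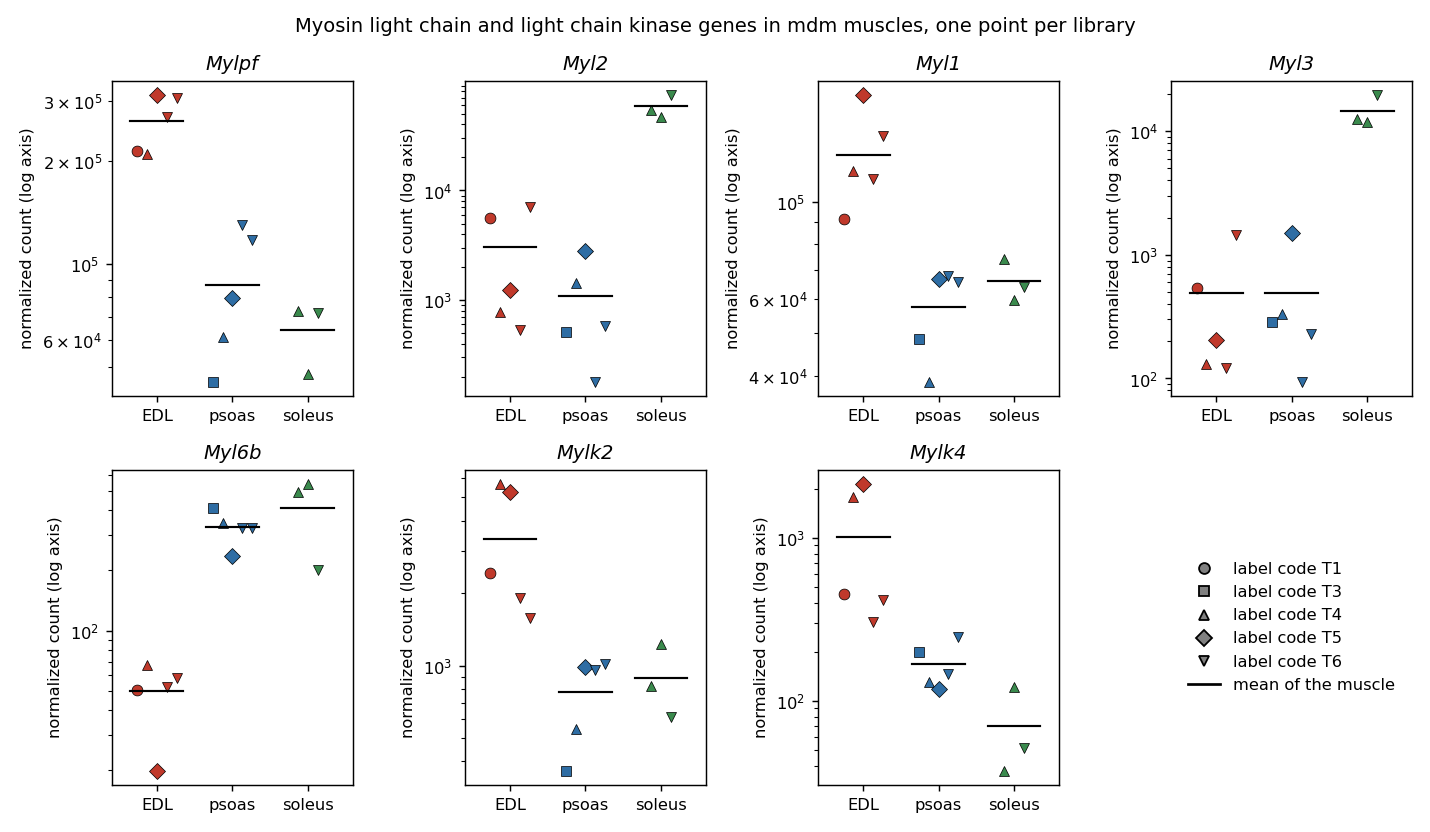
Normalized count of each gene in each library (vertical log axis, counts divided by the authors' size factor), by muscle (horizontal axis), with horizontal lines at the mean and marker shapes for the label code. All 3 soleus libraries lie above the EDL and psoas libraries for Myl2 and Myl3, and all 5 EDL libraries lie above the other muscles for Mylpf, Myl1, Mylk2 and Mylk4 and below them for Myl6b.

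The muscles were compared gene by gene with edgeR's quasi-likelihood test on the read counts, and a gene was called where the log2 fold change exceeded 1 in either direction with a p, adjusted after Benjamini and Hochberg, below 0.01. Between psoas and EDL, 5 of the 7 genes were called, while 4.93% of the 17069 genes tested were called. Myl6b was called higher in psoas (2.43% of all genes), and Myl1, Mylpf, Mylk2 and Mylk4 were called lower (2.5% of all genes). Between soleus and EDL, 2 of the 7 were called, against 0.978% of all genes. Both, Myl3 and Myl6b, were higher in soleus, as were 0.533% of all genes. Between soleus and psoas, 0 of the 7 were called by edgeR, against 0.0762% of all genes (0.0703% higher and 0.00586% lower). At an unadjusted p under 0.05 from edgeR, 2 of the 7 passed between soleus and psoas, Myl2 and Myl3, beside 2163 of the 17069 genes tested. For soleus against psoas, DESeq2 called 1, Myl2 (1% of all genes), and limma called 2, Myl2 and Myl3 (0.117% of all genes). DESeq2 called the same 5 of the 7 between psoas and EDL, against 9.29% of all genes. Between soleus and EDL it called 5 of 7, Myl2, Myl6b, Mylk2, Mylk4 and Mylpf, against 3.71% of all genes, and gave no adjusted p for Myl3. Limma called 3 between psoas and EDL, Myl6b, Mylk2 and Mylpf, against 5.79% of all genes, and 4 between soleus and EDL, Myl2, Myl3, Myl6b and Mylk4, against 1.27%. The median log2 fold change of the 7 genes was -1.47 for psoas over EDL, -0.95 for soleus over EDL and 0.21 for soleus over psoas, beside 0.02, -0.03 and -0.03 over all genes tested. The comparisons of psoas and of soleus with EDL share the EDL libraries and are not independent.

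**Figure D2:**
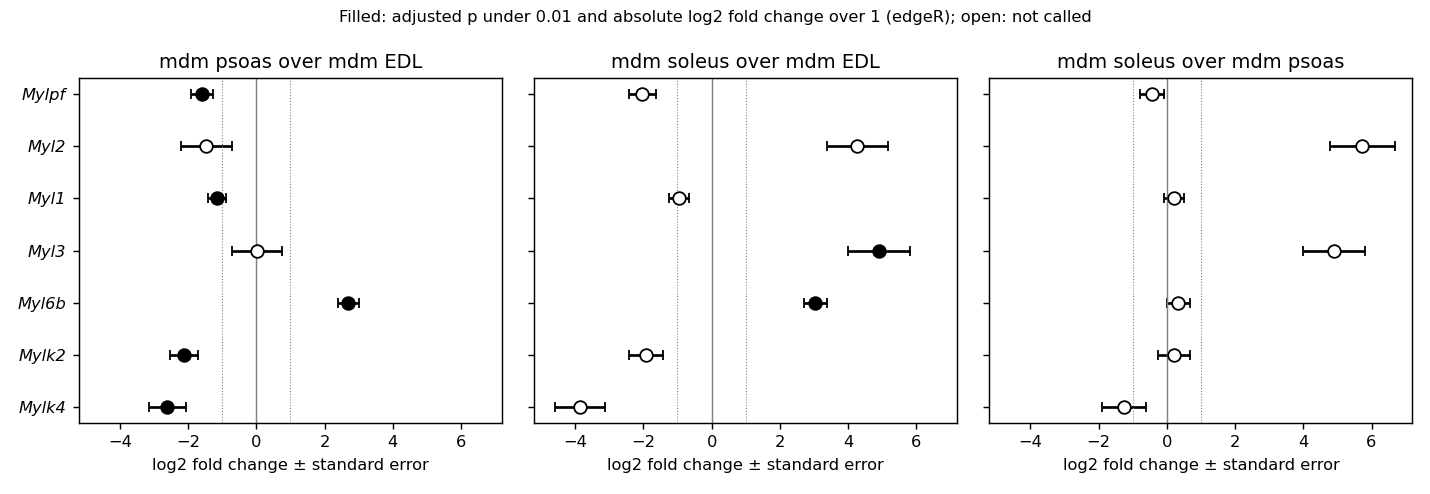
Log2 fold change of each gene with its standard error (horizontal axis) for psoas over EDL, soleus over EDL and soleus over psoas, from edgeR. Filled points were called: 5 genes for psoas over EDL, Myl3 and Myl6b for soleus over EDL, and none for soleus over psoas, where the points of Myl2 (5.73) and Myl3 (4.90) lie far to the right but are open.

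Counted by library, the values of psoas and EDL did not overlap for 5 of the 7 genes, which was also found for 13% of all genes tested. Psoas was the higher muscle for 1 of them (6.48% of all genes) and the lower for 4 (6.56%). Soleus and EDL did not overlap for any of the 7, against 11% of all genes. Soleus was the higher muscle for 3 of them (5.33% of all genes) and the lower for 4 (5.72%). For soleus and psoas, Myl2 and Myl3 did not overlap, 2 of 7 against 10.2% of all genes, and both were higher in soleus (4.97% of all genes higher, 5.19% lower).

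Mylpf, the fast regulatory light chain, was 3.03-fold lower in psoas than in EDL. Its normalized counts were 214448, 209774, 312192, 269300 and 306830 in EDL replicates 1 to 5. In psoas they were 45205, 61318, 79521, 130369 and 117317, and in soleus 73011, 47575 and 72136. Every psoas and soleus library lay below every EDL library, psoas replicates 4 and 5 came closest to EDL, and psoas and soleus overlapped. The log2 fold change of psoas over EDL was -1.60 (SE 0.32, adjusted p = 0.00523, edgeR). The same gene was lower by 2.03 on the log2 scale in soleus than in EDL (log2 fold change -2.03, SE 0.39), which missed the limit narrowly at an adjusted p of 0.0107 from edgeR. Soleus and psoas differed by -0.43 (SE 0.36, adjusted p = 0.628, edgeR). The psoas call was lost without EDL replicate 3 (adjusted p = 0.0143), EDL replicate 5 (0.0133) or psoas replicates 1 (0.0114), 2 (0.0159) or 3 (0.0118), at log2 fold changes of -1.57 to -1.44. For soleus over EDL, leaving out psoas replicate 1 brought the adjusted p to 0.0077, and the gene was then called.

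Myl2, the slow regulatory light chain, separated soleus from the fast muscles. Soleus held 54764, 46822 and 73702 normalized counts. EDL held 5637, 775, 1248, 531 and 7072, and psoas 507, 1433, 2798, 180 and 584. All soleus libraries were above all others, while EDL and psoas overlapped and varied widely within each muscle, with EDL replicates 1 and 5 and psoas replicate 3 the highest. The log2 fold change was 4.27 for soleus over EDL (SE 0.89, adjusted p = 0.0171, edgeR) and 5.73 for soleus over psoas (SE 0.94, adjusted p = 0.0139, edgeR). These are 19.3-fold and 53.2-fold differences, and neither passed the limit for the adjusted p, so Myl2 was not called in either comparison. Psoas and EDL differed by -1.47 (SE 0.76, adjusted p = 0.191, edgeR).

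The summed regulatory light chain level, Mylpf and Myl2 together per kb, was 248749 ± 46260 in EDL, 82246 ± 33972 in psoas and 90454 ± 19265 in soleus. Soleus libraries ran from 68808 to 105720 per kb and EDL libraries from 197925 to 294606. The sums of soleus thus stayed below those of EDL with Myl2 included, and they overlapped with psoas. Myl2 made up 29.0%, 34.9% and 35.8% of this sum in soleus replicates 1 to 3. In EDL its share was 1.41%, 0.201%, 0.217%, 0.107% and 1.24%, and in psoas 0.607%, 1.26%, 1.88%, 0.0750% and 0.271%. EDL replicates 1 and 5 had the larger shares in EDL, replicates 2 and 3 in psoas, and none came near soleus.

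Myl1, the fast essential light chain, which gives rise to a long and a short protein from separate start sites, was 2.23-fold lower in psoas than in EDL. EDL libraries held 91580, 117911, 175560, 112907 and 141386 normalized counts. Psoas libraries held 48631, 38729, 66545, 67572 and 65434, and soleus libraries 74002, 59729 and 63957. No library of psoas or soleus reached the lowest of EDL, and psoas and soleus overlapped. The log2 fold change of psoas over EDL was -1.16 (SE 0.25, adjusted p = 0.0088, edgeR). Taking the number of psoas and EDL libraries as a block joins replicates 1, which are from different mice. With this block the log2 fold change was -1.15 with an adjusted p of 0.0145 from edgeR, and the call was lost. It was also lost without any single library other than EDL replicate 1, at log2 fold changes of -1.21 to -1.01 and adjusted p from 0.0101 without soleus replicate 3 to 0.0248 without psoas replicate 2. Soleus over EDL gave -0.95 (SE 0.30, adjusted p = 0.110, edgeR), and soleus over psoas 0.21 (SE 0.29, adjusted p = 0.784, edgeR). The counts do not separate the long and short forms.

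Myl3, the slow essential light chain, was 30.2-fold higher in soleus than in EDL. Its normalized counts were 12555, 11854 and 19527 in soleus. They were 539, 131, 205, 121 and 1442 in EDL, and 288, 332, 1512, 93.8 and 229 in psoas. The lowest soleus library was above the highest of the other muscles, and EDL and psoas covered nearly the same range, with EDL replicate 5 and psoas replicate 3 at its top. The log2 fold change of soleus over EDL was 4.92 (SE 0.91, adjusted p = 0.00885, edgeR). This call was kept without EDL replicate 5, psoas replicate 3 or psoas replicate 4, and lost without any other library. The adjusted p was then 0.0213, 0.0208, 0.0284 and 0.0151 without EDL replicates 1 to 4, 0.0103, 0.0119 and 0.0101 without psoas replicates 1, 2 and 5, and 0.0335, 0.0282 and 0.0263 without soleus replicates 1 to 3. With the label code as a block it was also lost (log2 fold change 5.48, adjusted p = 0.0219, edgeR). Without EDL replicate 5 the log2 fold change grew to 5.88, a move of over 1.5 times in fold. Soleus over psoas gave a similar log2 fold change of 4.90 (SE 0.91) that was not called (adjusted p = 0.0251, edgeR). Psoas over EDL gave 0.02 (SE 0.74, adjusted p = 0.991, edgeR), and its sign changed under other settings.

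Myl6b differed in the other direction from the fast light chains. EDL libraries held 50.7, 67.6, 19.9, 52.3 and 58.2 normalized counts, from 10 to 119 reads each. Psoas libraries held 413, 345, 235, 326 and 327, and soleus libraries 495, 541 and 201. Every psoas and soleus library was above every EDL library, EDL replicate 3 was the lowest, and soleus replicate 3 lay below all psoas libraries. Psoas exceeded EDL 6.48-fold (log2 fold change 2.70, SE 0.32, adjusted p = 0.000665, edgeR) and soleus exceeded EDL 8.20-fold (log2 fold change 3.04, SE 0.34, adjusted p = 0.000515, edgeR). Both calls held without any single library, with adjusted p of at most 0.00221 and 0.00539. Soleus over psoas gave 0.34 (SE 0.33, adjusted p = 0.681, edgeR). Of the 7 genes, Myl6b alone was called higher outside EDL in both comparisons.

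Among the essential light chain genes of the sarcomere, per kb, Myl1 made up 98.8% ± 0.570 of the sum of Myl1, Myl3, Myl4 and Myl6b in EDL, 94.3% ± 2.38 in psoas and 80.1% ± 4.38 in soleus (SD, n = 5, 5 and 3). Myl3 made up 0.388% ± 0.406, 0.797% ± 0.794 and 18.0% ± 4.67. Myl4, the embryonic and atrial essential light chain, made up 0.790% ± 0.259 in EDL, 4.22% ± 1.97 in psoas and 1.23% ± 0.0665 in soleus. The share of Myl6b was 0.0469% ± 0.0205, 0.650% ± 0.245 and 0.574% ± 0.286. The muscles thus differed in composition, with Myl3 as the largest part beside Myl1 in soleus, and Myl4 in psoas and, on average, in EDL. The summed level was 62407 ± 15514 per kb in EDL, 29254 ± 6287 in psoas and 39649 ± 3818 in soleus.

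**Figure D3:**
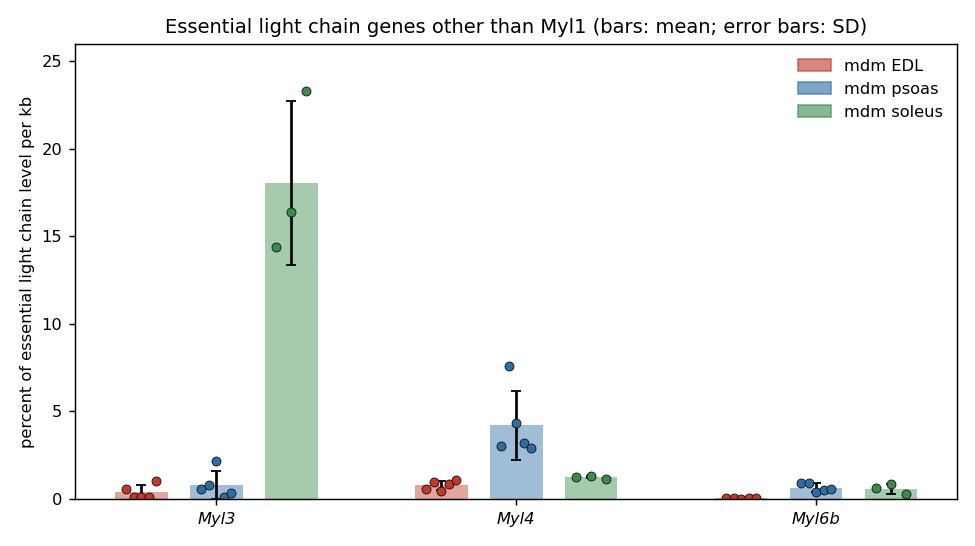
Share of Myl3, Myl4 and Myl6b in the summed essential light chain level per kb (vertical axis, percent), with bars at the mean, error bars of 1 SD (drawn no lower than 0) and a point per library. Myl3 stands at 18.0% in soleus and below 1% on average in the other muscles, and Myl4 is highest in psoas, at 4.22%.

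Mylk2, the skeletal muscle myosin light chain kinase, was 4.38-fold lower in psoas than in EDL. EDL libraries held 2417, 5680, 5260, 1902 and 1572 normalized counts. Psoas libraries held 366, 546, 986, 957 and 1016, and soleus libraries 826, 1233 and 610. All psoas and soleus libraries lay below all EDL libraries, and EDL itself was divided, with replicates 2 and 3 far above the other 3. The log2 fold change of psoas over EDL was -2.13 (SE 0.41, adjusted p = 0.00469, edgeR). The call was lost without EDL replicate 3 (adjusted p = 0.0144) or psoas replicates 1 (0.0105) or 2 (0.0147). Soleus over EDL gave -1.92 (SE 0.50, adjusted p = 0.0475, edgeR), which was not called, and soleus over psoas 0.21 (SE 0.46, adjusted p = 0.867, edgeR).

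Mylk4, the related kinase, was 6.09-fold lower in psoas than in EDL. Its normalized counts were 451, 1786, 2140, 303 and 415 in EDL. They were 200, 131, 118, 146 and 248 in psoas, and 37.2, 121 and 51.6 in soleus, where as few as 30 reads were counted. EDL libraries were above all others, with replicates 2 and 3 again the highest, and soleus overlapped with psoas at the top of its range. The log2 fold change of psoas over EDL was -2.61 (SE 0.55, adjusted p = 0.00727, edgeR). The block on library numbers, which joins replicates 1 of different mice, gave -2.13 with an adjusted p of 0.0221 from edgeR. The call was then lost. With the label code as a block it was lost as well (log2 fold change -2.46, adjusted p = 0.0172, edgeR). It was also lost without EDL replicates 2 (adjusted p = 0.0145) or 3 (0.0215) or psoas replicates 1 (0.0155), 2 (0.0222), 3 (0.0164) or 4 (0.0168). Soleus over EDL gave -3.86, a 14.5-fold lower level (SE 0.73), at an adjusted p of 0.0102 from edgeR, just over the limit. Without EDL replicate 4 that difference was called (adjusted p = 0.00554). Soleus over psoas gave -1.25 (SE 0.65, adjusted p = 0.442, edgeR).

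The log2 ratio of Mylk2 to Mylk4 per kb was 3.37 ± 0.55 in EDL, 3.53 ± 0.84 in psoas and 5.17 ± 0.60 in soleus. The 3 soleus libraries, at 5.85, 4.73 and 4.95, lay above all EDL libraries (2.68 to 4.03) and all psoas libraries (2.25 to 4.44). Mylk2 RNA was therefore the larger in every library, and by most in soleus. EDL replicates 2 and 3, which had the highest Mylk2 and Mylk4 counts, also had the highest summed counts of the 6 skeletal muscle markers, 2468100 and 2558500, against 1258070 to 1591960 in the other EDL libraries. The part of this in the kinase values was not tested.

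Slow and fast partners were also set against each other within each library. The log2 ratio of Myl2 to Mylpf per kb was -8.02 ± 1.69 in EDL, -7.65 ± 1.87 in psoas and -1.01 ± 0.24 in soleus. For Myl3 to Myl1 it was -8.67 ± 1.56, -7.45 ± 1.5 and -2.18 ± 0.44. Per kb, the fast partner was thus the more abundant in all 13 libraries. In normalized counts not divided by length this turned for the regulatory chains in soleus replicate 3, with 73702 for Myl2 and 72136 for Mylpf. In soleus Myl3 made up 14.7%, 16.8% and 23.7% of Myl3 and Myl1 together. In EDL it made up 0.594%, 0.112%, 0.118%, 0.109% and 1.02%, and in psoas 0.598%, 0.861%, 2.25%, 0.141% and 0.354%. The slow heavy chain Myh7 made up 52.3%, 52.0% and 45.3% of Myh7, Myh1, Myh2 and Myh4 per kb in soleus, 0.0682% to 0.977% in EDL and 0.0456% to 3.16% in psoas. For all 3 shares, replicates 1 and 5 were the highest in EDL, replicates 3 and 2 the highest in psoas, and replicate 4 the lowest in psoas. In soleus the shares were ordered differently, since replicate 3 had the largest shares of Myl2 and Myl3 and the smallest of Myh7. These libraries share depth and scaling across the 3 shares, and the likeness of the shares is given as a description.

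**Figure D4:**
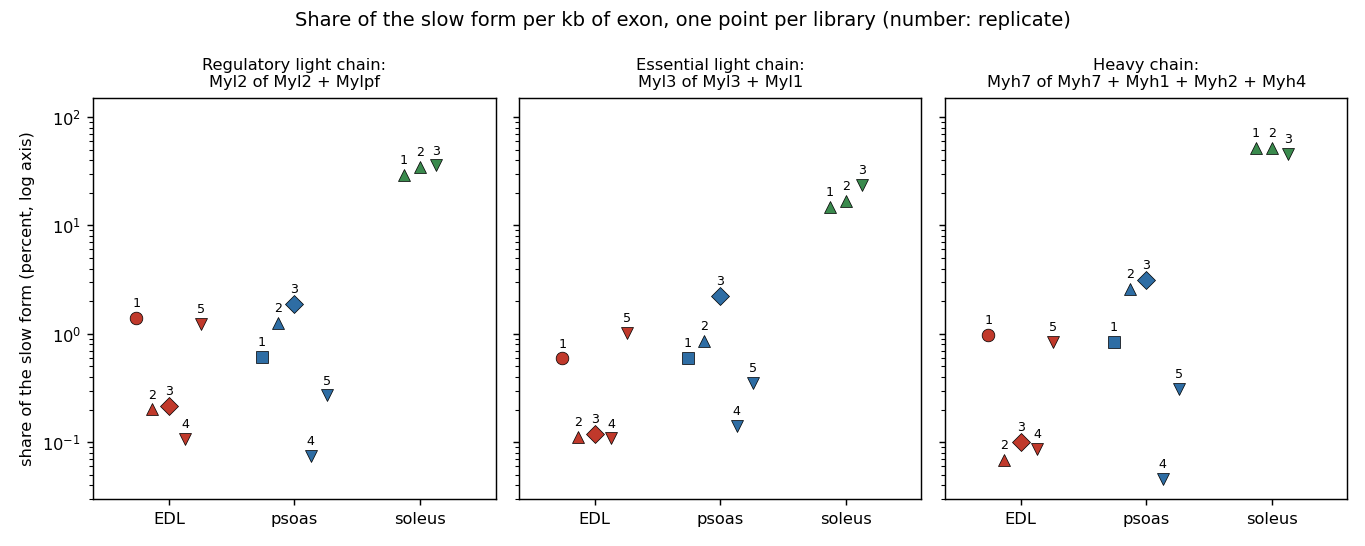
Share of the slow form per kb (vertical log axis, percent) for the regulatory light chain, the essential light chain and the heavy chain, by muscle, with the replicate number above each point and marker shapes for the label code as in the plot of counts by library. Soleus lies between 14.7% and 52.3%, and EDL replicates 1 and 5 stand above EDL replicates 2, 3 and 4 in every panel.

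Psoas and EDL libraries with the same number were also compared directly. Psoas was lower than EDL in 5 of 5 pairs for Mylpf (log2 differences of -2.23 to -1.02), Myl1 (-1.64 to -0.72), Mylk2 (-3.41 to -0.63) and Mylk4 (-4.17 to -0.74), and higher in 5 of 5 pairs for Myl6b (2.29 to 3.46). For these genes every psoas library lay outside the range of EDL, so any pairing gives the same direction. Myl2 was lower in 3 of 5 pairs and Myl3 in 3 of 5. For both slow light chains, pairs 2 and 3 had the higher level in psoas and pairs 1, 4 and 5 in EDL. Replicates 1 of the 2 muscles carry different ages and codes and are not from the same mouse.

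Within label codes, the log2 difference of psoas from EDL for Mylpf was -1.81 in T4, -1.98 in T5 and -1.21 in T6, and for Myl1 -1.64, -1.41 and -0.92. For Mylk2 it was -3.41, -2.42 and -0.80, and for Mylk4 -3.79, -4.17 and -0.88. Myl6b gave 2.29, 3.46 and 2.55. The directions were the same in every code, which follows from the lack of overlap between psoas and EDL libraries for these genes. The kinase differences were smallest in T6. For Myl2 the difference was 0.85 in T4, 1.15 in T5 and -2.56 in T6, and for Myl3 1.30, 2.86 and -1.49, so that neither had 1 direction. Soleus exceeded EDL within T4 and T6 by 6.01 and 5.26 for Myl2, 6.51 and 5.55 for Myl3, and 2.89 and 1.85 for Myl6b. Within the same codes it was below EDL by -1.85 and -1.98 for Mylpf, -0.84 and -0.97 for Myl1, -2.51 and -1.49 for Mylk2, and -4.71 and -2.73 for Mylk4. These directions also follow from the lack of overlap between soleus and EDL libraries. T4 holds 1 EDL, 1 psoas and 2 soleus libraries, T5 holds 1 EDL and 1 psoas library and T6 holds 2 EDL, 2 psoas and 1 soleus library, too few for an error.

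Of 8 further light chain genes, 6 were tested. Between psoas and EDL 1 was called higher, Myl4, as were 2.43% of all genes. It stood at 5417 ± 1629 normalized counts in psoas against 2261 ± 862 in EDL (log2 fold change 1.26, SE 0.28, adjusted p = 0.0092, edgeR), and the libraries of the muscles overlapped. That call was lost in 11 of 13 fits without 1 library, all but those without EDL replicate 5 or psoas replicate 1, with adjusted p from 0.0111 without psoas replicate 5 to 0.0275 without EDL replicate 3. For soleus over EDL and over psoas 0 of the 6 were called by edgeR, with 1 at an unadjusted p under 0.05 in each, and 0 by DESeq2 or limma. Over all 17069 genes tested, 2584 and 2163 were under that p. The median log2 fold change of the 6 was 0.14 for psoas over EDL, 0.33 for soleus over EDL and 0.25 for soleus over psoas. Among the other 5, Myl10, Myl9 and Myl12a had the largest absolute log2 fold changes, 1.01 for Myl10 in soleus over psoas, 0.80 for Myl9 in psoas over EDL and 0.61 for Myl12a in soleus over psoas, with adjusted p of 0.518, 0.159 and 0.545 from edgeR. Myl9 belongs to smooth muscle and cells other than muscle, as does Myl12a.

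Other kinases, phosphatase subunits and calmodulins acting on or beside the regulatory light chain were examined as lists. Of 16 kinase and phosphatase genes, edgeR called 0 in each of the 3 comparisons, with 3, 6 and 3 at an unadjusted p under 0.05. Over all 17069 genes tested, 5679 were under that p for psoas over EDL, 2584 for soleus over EDL and 2163 for soleus over psoas. DESeq2 called 2 of the 16 in soleus against EDL, Camk2a and Camk2g, against 3.71% of all genes. Otherwise it called 0, and limma called 0. The median log2 fold change of the 16 was 0.07, 0.41 and 0.15. The largest absolute log2 fold changes belonged to Camk2a, a calmodulin-dependent kinase (-1.82 in soleus over EDL, SE 0.50, adjusted p = 0.0623, edgeR), Ppp1r14c, a phosphatase inhibitor (-1.47 in soleus over EDL, adjusted p = 0.0829, edgeR), Mylk3, the cardiac light chain kinase (1.43 in soleus over psoas, adjusted p = 0.161, edgeR), and Camk2g (-1.06 in soleus over EDL, adjusted p = 0.0333, edgeR). Mylk3 stood at 15.9 ± 8.06 normalized counts in EDL, 15.2 ± 3.85 in psoas and 41.0 ± 7.01 in soleus. Mylk, the smooth muscle and non-muscle kinase, stood at 398 to 525, 314 to 1513 and 429.8 to 871. Of the 4 calmodulin genes edgeR called 0 in each comparison, with 3, 2 and 0 at an unadjusted p under 0.05, and DESeq2 and limma called 0. Their median log2 fold change was -0.71, -0.46 and 0.18. Calm3 was lower in psoas than in EDL by -0.81 (SE 0.15, adjusted p = 0.00412, edgeR), short of the limit for the fold change.

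The 9 sarcomeric heavy chain genes had median log2 fold changes of 0.38, -1.49 and -0.82 in the same order. Over all genes tested these medians were 0.02, -0.03 and -0.03. Of the 9, 1 was called lower in psoas than in EDL, as were 2.5% of all genes. This was Myh4, the fastest isoform (log2 fold change -4.18, SE 0.69, adjusted p = 0.00223, edgeR). In soleus, 4 were called lower than in EDL, Myh1, Myh4, Myh8 and Myh13, with log2 fold changes of -3.80, -5.44, -1.85 and -1.74 and adjusted p of 0.000993, 0.0066, 0.00446 and 0.0062 from edgeR. Of all genes, 0.445% were called lower in soleus than in EDL. Myh8, the perinatal isoform, was also called lower in soleus than in psoas (-2.56, adjusted p = 0.00163, edgeR), against 0.00586% of all genes. The soleus calls were lost without soleus replicate 1 for all 4 genes (adjusted p = 0.0150 for Myh1, 0.0423 for Myh4, 0.0308 for Myh8 and Myh13), without soleus replicate 2 for all 4 (0.0101, 0.0373, 0.0270 and 0.0285), without soleus replicate 3 for Myh8 and Myh13 (0.0210 and 0.0261), without EDL replicate 2 for Myh4 and Myh13 (0.0127 and 0.0126) and without EDL replicate 3 for Myh4, Myh8 and Myh13 (0.0123, 0.0104 and 0.0104). With the replicate number as a block, Myh13 had an adjusted p of 0.0141 from edgeR for soleus over EDL. Same-numbered soleus and EDL libraries carry different ages, so this block is not a pairing. The difference of Myh8 between soleus and psoas was lost without soleus replicates 1 (0.0207), 2 (0.0175) or 3 (0.0230). Myh7 and Myh6, the slow and cardiac isoforms, were higher in soleus than in EDL by 4.89 and 4.78 on the log2 scale without being called (adjusted p of 0.0261 and 0.0126, edgeR). DESeq2 called both in soleus against EDL and against psoas, where it called 7 and 4 of the 9 heavy chains, and limma called Myh6 against EDL, 1 of 5 heavy chains it called there. Over all genes, DESeq2 called 3.71% and 1% in these comparisons, and limma called 1.27% in soleus against EDL.

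For each gene, the genes with the most similar profile were found by the root-mean-square difference of mean-centred log2 CPM over the 13 libraries, among 16979 genes with a symbol. Ckm (muscle creatine kinase), Tpi1 and Pgm1 were closest to Mylpf, at 0.177, 0.299 and 0.310, where the profile of Mylpf itself had a root-mean-square of 0.982. Cutc, Vdac1 and Arl3 were closest to Myl1, at 0.162, 0.166 and 0.175, for a profile of 0.602. Myl2 and Myl3 had neighbours in common, Myh6, Myh7 and the slow tropomyosin Tpm3, at 0.844, 0.849 and 0.925 from Myl2 and at 0.556, 0.798 and 0.690 from Myl3, for profiles of 2.75 and 2.61. The distance between Myl2 and Myl3 was 0.727. Myl6b was closest to the transcription factor genes En1 (0.414) and Prox1 (0.607) and to Tbxa2r (0.608), for a profile of 1.48, and En1 and Tbxa2r had means of at most 29.2 and 12.4 normalized counts in any muscle. Mylk2 was closest to Pygm (glycogen phosphorylase, 0.345), Ppp1r3a (0.388) and Pfkm (phosphofructokinase, 0.402), for a profile of 1.14. Mylk4 had no gene as near, with 0.755 to the pseudogene Gm43726, 0.765 to Gm7265 and 0.766 to Pygm, for a profile of 1.64. Profiles were measured in the same libraries, so depth and scaling are shared by all of these distances.

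Markers of other cells and fibre states moved with some of these comparisons. The summed counts of 4 regenerating fibre markers (Myh3, Myh8, Myog and Myod1, all found in the tables) were 34343 to 66192 in EDL, 63886 to 141915 in psoas and 58398 to 177272 in soleus. In soleus the higher sum came from Myh3, at 109785 ± 58733 normalized counts against 22516 ± 11639 in EDL, whereas Myh8 was lower (6925 ± 594 against 24950 ± 5108), and Myog (1922 against 2149) and Myod1 (116 against 137) overlapped between these muscles. Those of 3 of 3 Schwann cell markers were 452 to 1238 in EDL, 2170 to 18414 in psoas and 1175 to 3999 in soleus, and those of 3 of 3 adipocyte markers 3459 to 18585, 9992 to 21512 and 32380 to 61245. Those of 5 of 5 smooth muscle markers were 1359 to 3050, 2554 to 10133 and 2384 to 4297. The highest of these was psoas replicate 1, and only Acta2 was called, higher in psoas than in EDL. Sums of 4 macrophage markers (814 to 3166, 986 to 4299 and 1144 to 1738) overlapped between all muscles. So did those of 3 endothelium markers (1113 to 3383, 1440 to 2563 and 2111 to 3466). For 3 fibroblast markers the sums were 23858 to 37009, 19237 to 27573 and 15535 to 23433. For 2 of 4 heart markers found in the tables, Myh6 and Tnnt2, the sums were 1145 to 3876, 1469 to 6568 and 23805 to 37547. The higher sum in soleus came from Myh6, at 29888 ± 6420 normalized counts against 1094 ± 998 in EDL and 1467 ± 1741 in psoas. Tnnt2, at means of 963 in EDL, 1970 in psoas and 1684 in soleus, overlapped between all muscles. Of 3 of 3 mesothelium markers, the sums were 28.4 to 98.8 in EDL, 182 to 850 in psoas and 42.1 to 112 in soleus, and Upk3b, Msln and Lrrn4 were each called higher in psoas than in EDL (adjusted p of 0.000654, 0.00419 and 0.000654, edgeR). The summed counts of the 6 skeletal muscle markers were 1258070 to 2558500 in EDL, 872969 to 1658120 in psoas and 819748 to 1212500 in soleus. Ckm was called lower in psoas than in EDL (log2 fold change -1.67, adjusted p = 0.00356, edgeR). Mybpc2 was called lower than in EDL in psoas (-3.01, adjusted p = 0.00468, edgeR) and in soleus (-5.30, adjusted p = 0.00425, edgeR). Acta1, Ttn, Neb and Mybpc1 were called in no comparison. No marker was at 0 in all libraries of a muscle. The part of these differences in the levels of Mylpf, Myl1, Myl2, Myl3, Myl6b, Mylk2 and Mylk4 was not tested.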

How the data were processed

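Per the labels, whole-muscle total RNA of 13 mdm libraries was sequenced as paired-end reads from stranded total RNA libraries. The authors trimmed low-quality libraries with Trimmomatic v0.32, aligned the reads to GRCm38.p4 with TopHat v2.1.1 and deposited read counts per gene, after a filter on marginal genes. The authors also deposited a normalized signal, the count divided by a DESeq2 size factor computed with more libraries than those used here (0.502 to 2.42). How reads overlapping genes were assigned, and on which strand, is not given in the sources used here. Symbols, positions and exon lengths came from GENCODE mouse release 21 for 17833 of 17924 genes. Every library had its own tables, and 0 entries named no gene.

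Genes reaching a normalized count of 10 in 3 libraries or more were tested (17069 genes), and their counts were fitted with edgeR 4.0.16 in R 4.3.3 (quasi-likelihood, TMM, all 13 libraries, muscle as the only factor), with Benjamini-Hochberg adjustment over all genes tested. The sequencing run, which the study modelled, is not named in the labels. Standard errors were taken as the log2 fold change over the root of the F statistic. Log2 CPM values had a prior count of 2. Levels per kb, ratios and shares are descriptions without a test. Alternatives were RLE or the authors' size factors, no filter, DESeq2 1.42.0, limma 3.58.1 on log2(normalized count + 1), a fit of 2 muscles only, the label code or the replicate number as a block, and leaving out each library. The 7 genes, the gene lists, the markers and the motifs were chosen with earlier results of these data known. Named genes are the 7, the called genes of each list and the 4 of each list with the largest absolute log2 fold change in any comparison, and the 3 nearest profiles of each gene; some genes under this rule are not reported here. Mylk was named beside them for its role, after its values were seen.

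Replicates of a muscle are separate samples in the labels, and the study calls them biological replicates. None of the 23 pairs within a muscle was a duplicate, since chi-square over its degrees of freedom was 56.5 or more in each. Deviations of same-numbered EDL and psoas libraries from their muscle means correlated by 0.407, 0.370, 0.316, 0.289 and 0.371, and these numbers were used as a block. The highest of these belonged to replicates 1, which carry different ages and codes and are not from the same mouse. Such a correlation therefore cannot show which libraries came from 1 mouse. The block on these numbers holds this false pair, so calls lost under it do not show what a paired fit would give. For soleus the correlations were 0.115, 0.421 and -0.162 with EDL and 0.159, 0.141 and -0.302 with psoas, and no pairing was taken. On simulated counts for soleus against EDL or psoas (200 of 17069 genes changed), 100% were recovered with at most 5 false calls. The simulation gave every gene the same spread, planted large changes in well-counted genes only, and held no effect of mouse or label code. It checked the procedure and cannot give the share of changes recovered in these libraries. Python 3.11.15, numpy 2.4.6, pandas 2.3.3 and matplotlib 3.10.9 were used for tables and figures. No protein sequences were used here.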

Additional observations from a re-analysis of the deposited data

Results flagged for a closer look

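Myl3 in psoas replicate 3, at 1512 normalized counts, stood far from the other 4 psoas libraries (93.8 to 332), with a gap to the nearest of them of 0.832 of the whole range, above the critical value of 0.71. In all, 20 groups of 5 values were examined in this way, and chance flags about 1 in 20. Without this library the log2 fold change of Myl3 in psoas over EDL was -1.03 with an adjusted p of 0.299 from edgeR, in place of 0.02.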

How the results depend on the processing

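Under alternatives other than leaving out a library, 142 of 165 fold changes of the 7 genes kept direction and call, 8 lost the call, 11 gained it and 4 changed sign, none of those 4 called. DESeq2 gave no adjusted p for Myl3, whose 3 fold changes under it are not among the 165. Without 1 library, 230 of 273 kept both, 36 lost the call, 2 gained it and 5 changed sign. All 21 levels per kb moved by less than 1 SD with TMM library sizes, and scaling moved the median of all genes by less than 0.1.

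For psoas over EDL, edgeR with all 13 libraries called 415 genes higher and 426 lower. DESeq2 called 812 higher and 774 lower, the replicate block (same-numbered libraries, with replicates 1 not from the same mouse) 702 higher, and a fit of 2 muscles 261 lower. Limma, the fit of 2 muscles and the replicate block each called 3 of the 7 genes, without Myl1 and Mylk4, and the label code block called 4, losing Mylk4. Over all genes limma called 5.79%. The shares of all genes called by the fit of 2 muscles and by the blocks are not reported here for any comparison. Their counts of the 7 genes therefore stand without a background. Without 1 library, 170 to 402 genes were higher, 147 to 449 lower, and 1 to 5 of the 7 called, 1 (Myl6b) without EDL replicate 3, psoas replicate 1 or psoas replicate 2. For soleus over EDL (91 higher, 76 lower), DESeq2 called 270 and 363, the fit of 2 muscles 54 higher, the label code block 31 higher, limma 120 lower and the replicate block 45 lower. Of the 7, DESeq2 called 5 (with no adjusted p for Myl3), limma 4 and the label code block 1, Myl6b. Without 1 library, 17 to 90 were higher, 2 to 92 lower and 1 to 2 of the 7 called. For soleus over psoas (12 higher, 1 lower), DESeq2 called 95 and 76, the label code block 4 and 2, limma 5 lower and the fit of 2 muscles 0 lower. DESeq2 called 1 and limma 2 of the 7. Without 1 library, 3 to 18 were higher, 0 to 3 lower and 0 of the 7 called. The soleus numbers were not taken as pairs, and the replicate block changed no call of the 7 genes with soleus.

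Sign changes were those of Myl3 in psoas over EDL with RLE (-0.0101), with DESeq2 (-0.00969), with the label code block (-0.20) and without EDL replicates 2 (-0.23), 3 (-0.17) or 4 (-0.23) or psoas replicate 3 (-1.03; the fits without 1 library ran up to 0.98), of Myl6b in soleus over psoas with the label code block (-0.0479), and of Mylk2 there with that block (-0.15) or without soleus replicate 2 (-0.10, in a range up to 0.42). Counts not divided by exon length gave log2 ratios of -0.14 for Myl2 to Mylpf in soleus and of 1.99, 2.15 and 3.79 for Mylk2 to Mylk4 in EDL, psoas and soleus, a shift set by the exon lengths. Otherwise the cause was not tested. Soleus has 3 libraries, and fits without 1 of them leave 2.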
